A study of Mus musculus with 6 samples.

Results

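The genes described here are the protein-coding genes of the extracellular matrix, the integrins and the ADAM proteases, and the measurement is whether Dppa2 was found at their promoters in mouse ESCs. They were chosen by gene symbol, and comprise the collagens, the laminins, the integrin alpha and beta subunits, the ADAM, ADAMTS and MMP proteases, the TIMP inhibitors, the fibrillins and the fibulins. This rule was met by 165 of 22367 protein-coding genes of GENCODE M1, counted on all chromosomes that held a peak. One of them, Col4a3bp, matches by its symbol but encodes a ceramide transfer protein and not a collagen. The symbol alone decided membership, but the genes to describe were chosen with earlier results of these data known. The data come from an anti-V5 ChIP-seq experiment in CGR8 cells, a mouse ESC line kept without feeders in medium with serum and leukemia inhibitory factor. The cells stably expressed Dppa2 with an N-terminal V5 tag from a pPyCAG-driven vector, after selection of clones with puromycin. The parental CGR8 line, which carries no V5 tag, was the control ChIP and entered only through the authors' peak calling, and 4 libraries for histone modifications were not used here. There was 1 library for V5-Dppa2, so that no replicate error and no test between conditions can be given.

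The extracellular matrix is the network of secreted proteins to which cells attach. Fibrillar collagens give it tensile strength, and laminins and type IV collagen build the basement membrane on which epithelia rest. Integrins, pairs of an alpha and a beta subunit, span the cell membrane and link the matrix to the cytoskeleton. MMP, ADAM and ADAMTS proteins are metalloproteases that cut matrix components or shed proteins from the cell surface, and TIMPs inhibit them. Several ADAM proteins lack protease activity or serve in sperm. Dppa2 is a SAP domain protein of the early embryo, the germ line and ESCs.

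The list of V5-Dppa2 peaks held 3336 intervals on mm9. Each has a score, which is the negative log10 of the p-value from MACS multiplied by 10 and ran from 100 to 3100. A gene was counted as Dppa2-bound when the centre of a peak lay no more than 1000 bp from the start of at least 1 of its transcripts. The list consists of peaks at TSSs, so that binding elsewhere in these genes, such as in introns or enhancers, was not analysed here. Distances to the nearest midpoint given below run to peaks of this list only. The sequencing depth is unknown from a peak list, and a gene without a peak is one at which no peak passed the authors' threshold.

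Of the 165 genes, 31 were Dppa2-bound, which is 18.8% (95% exact Clopper-Pearson interval 13.1 to 25.6%, which takes genes as independent and covers counting error only). Over all protein-coding genes the share was 14.2%, with 3169 bound genes, a value inside that interval. The bound genes were 7 collagens, 3 laminins, 3 integrin alpha subunits, 2 integrin beta subunits, 7 ADAM genes, 5 ADAMTS genes, 3 MMP genes and 1 fibulin. None of the 4 TIMP genes was bound, which allows a share of up to 60.2%. In each subfamily the interval included the 14.2% of all genes, as the plot of bound shares shows, and with as few as 4 genes in a subfamily differences of this size were not detectable.

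**Figure D1:**
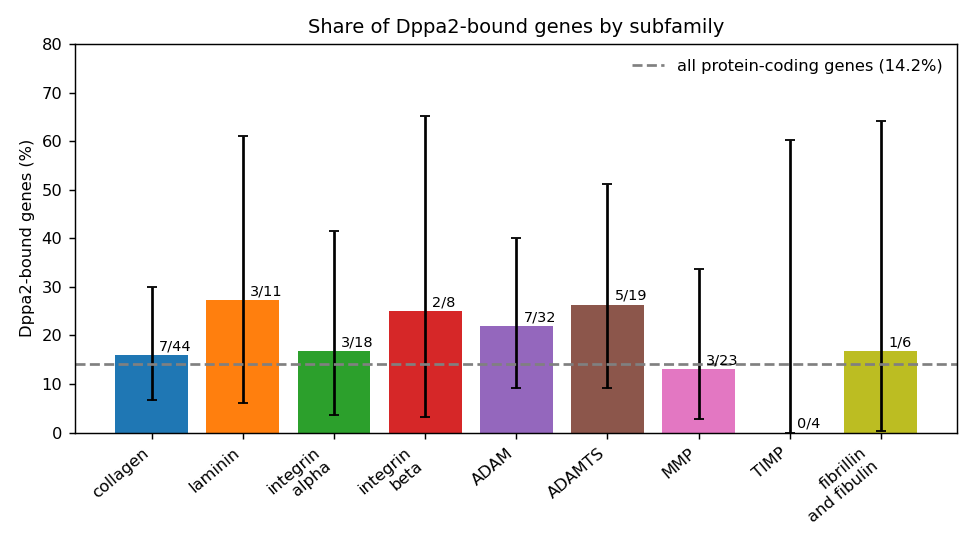
Share of Dppa2-bound genes (percent) in each subfamily, with bound and total gene numbers above the bars, 95% exact intervals as error bars and the 14.2% of all protein-coding genes as a dashed line. The dashed line crosses every error bar, from 0 of 4 TIMP genes to 3 of 11 laminins.

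As examples of promoters with different CpG content, upstream sequences are given for the highest-scoring bound collagen, integrin and ADAM gene, and for the MMP gene with the lowest CpG ratio, which was not bound. Mmp1b is an example of a CpG-poor promoter, and its low CpG number follows from that choice. Each runs 5′ to 3′ on the coding strand in mm9 and ends at the base before the most upstream TSS in the peak or, for Mmp1b, before the most upstream TSS of the gene. CpG dinucleotides, searched as CG, which reads the same on both strands, are in capitals.

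Col4a4, chr1:82583425-82583495, minus strand, the whole gap between the TSSs of Col4a4 and Col4a3: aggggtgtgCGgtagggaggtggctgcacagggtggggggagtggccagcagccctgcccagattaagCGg
Itgav, chr2:83564304-83564553, plus strand: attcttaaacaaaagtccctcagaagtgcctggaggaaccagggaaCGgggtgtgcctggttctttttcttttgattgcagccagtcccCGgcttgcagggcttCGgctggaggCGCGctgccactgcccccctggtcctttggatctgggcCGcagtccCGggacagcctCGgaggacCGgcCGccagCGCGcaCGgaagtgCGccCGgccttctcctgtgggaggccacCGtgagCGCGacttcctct
Adam32, chr8:26059277-26059526, minus strand: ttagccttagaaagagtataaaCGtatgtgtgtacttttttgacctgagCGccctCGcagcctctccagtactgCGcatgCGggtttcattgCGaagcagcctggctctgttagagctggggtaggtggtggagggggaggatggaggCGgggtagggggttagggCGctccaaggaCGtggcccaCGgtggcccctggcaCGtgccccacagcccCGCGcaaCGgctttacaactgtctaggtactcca
Mmp1b, chr9:7388048-7388297, minus strand: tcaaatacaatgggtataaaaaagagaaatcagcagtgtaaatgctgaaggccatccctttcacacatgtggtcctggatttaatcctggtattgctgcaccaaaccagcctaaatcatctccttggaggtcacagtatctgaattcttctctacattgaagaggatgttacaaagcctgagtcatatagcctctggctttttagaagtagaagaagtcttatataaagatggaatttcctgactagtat

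The 250 bases upstream held 18 CpGs at Itgav, 14 at Adam32 and 0 at Mmp1b. Windows of this length upstream of the TSS of all protein-coding genes had a median of 8 CpGs with quartiles at 3 and 18, and 92.5% of them held at least 1. The 71 bases between Col4a4 and Col4a3 held 2. The count at Itgav was above that of 73.6% of all windows and that at Adam32 above that of 63.5%.

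Among the collagens, Dppa2 was found at 7 of 44 genes with Col4a3bp included, 15.9%, and the fibril-forming collagens that make up most of skin, bone and tendon were not among them. Of 11 fibrillar collagens 1 was bound, Col11a2, a cartilage collagen, whereas Col1a1, Col1a2, Col2a1 and Col3a1 had their nearest peak midpoint at 175 kb, 65.3 kb, 204 kb and 759 kb. Of 8 collagens of basement membranes 3 were bound, Col4a3, Col4a4 and Col15a1. Of 9 FACIT collagens, which lie on the surface of fibrils or fibril-like assemblies, 2 were bound, Col16a1 and Col9a2. Of the 15 other collagens 1 was bound, the transmembrane collagen Col23a1.

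Col4a3 (ENSMUSG00000079465) and Col4a4 (ENSMUSG00000067158) encode chains of the type IV collagen of the kidney glomerulus and lie head to head on chromosome 1. A single peak from 82582744 to 82584260, with a score of 319 and rank 1004 of 3336, covered both start sites. Its midpoint lay 6 bp downstream of the TSS of Col4a3 at 82583496 and 78 bp upstream of that of Col4a4 at 82583424. The peak is therefore 1 measurement for a pair of genes, and the 31 bound genes had 30 peaks. The third chain of this network, Col4a5, on chromosome X, had its nearest midpoint at 6899.9 kb. The other head-to-head pair on an autosome, Col4a1 and Col4a2, which form the ubiquitous type IV collagen, had their nearest midpoints at 209.8 kb and 109.6 kb, and the CpG ratios of 0.774 and 0.784 at their TSSs were above those at Col4a3 and Col4a4.

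The remaining collagen peaks had scores from 128 to 311. Col16a1 (ENSMUSG00000040690) had a score of 311, in a peak at chromosome 4 from 129724429 to 129725762 with its midpoint 11 bp downstream of the TSS in a UTR. A TSS of the non-coding transcript gene Gm12963 lay 77 bp from that midpoint. At Col11a2 (ENSMUSG00000024330), chromosome 17, the peak from 34175229 to 34177026 scored 304 and was centred 255 bp upstream of the TSS, the farthest upstream of all bound genes here. Col9a2, a cartilage collagen, had a score of 233, Col15a1, a basement membrane collagen, 231, and Col23a1 128. The midpoint at Col15a1 lay 683 bp downstream of its TSS, and a TSS of the non-coding transcript gene Gm12426 was nearer.

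Laminins are trimers of an alpha, a beta and a gamma chain, and Dppa2 was bound at 3 of the 11 genes. These were Lama3, 1 of 5 alpha chains, and the gamma chains Lamc1 and Lamc3. None of the 3 beta chains was bound. Lama3 (ENSMUSG00000024421), a chain of the laminin of skin epithelium, had the highest score, 323, with the midpoint 42 bp downstream of the TSS in a coding exon. Its beta chain partner in that laminin, Lamb3, had its nearest midpoint at 149 kb. Lamc1 (ENSMUSG00000026478), the gamma chain of most laminins, scored 205 and Lamc3 133. The peak at Lamc1, with 1021 bp, was the narrowest of the 30. Lama1 and Lamb1, with which Lamc1 forms the first laminin of the embryo, had their nearest midpoints at 343 kb and 236 kb.

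Of the integrins, 3 of 18 alpha and 2 of 8 beta subunits were bound. Itgav (ENSMUSG00000027087), an alpha subunit that recognizes RGD sequences, had the highest score of them, 340, in a peak on chromosome 2 from 83564031 to 83565351 centred 7 bp downstream of a TSS in a UTR. Its partner in a vitronectin receptor, Itgb5 (ENSMUSG00000022817), scored 227, with the midpoint 213 bp downstream. Itga11, a collagen receptor subunit, scored 242, and its midpoint lay in an intron 483 bp downstream. Itgb1, the partner of many alpha subunits including Itgav and Itga11, had a score of 113 and rank 3133, near the authors' threshold. By ligand, 1 of 4 RGD-binding alpha subunits was bound, 1 of 4 collagen-binding ones, 0 of 3 laminin-binding ones and 1 of 5 leukocyte ones, beside 14.2% of all protein-coding genes. These groups of 3 to 5 genes were drawn up after the bound genes had been seen. They are too small to show a difference between ligands.

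The leukocyte subunit was Itgad (ENSMUSG00000070369), with a score of 136. It was bound through a single upstream TSS on chromosome 7 at 135297890, and the TSS shared by most of its transcripts lay 19557 bp from the midpoint. Its neighbours Itgax and Itgam were not bound, and the nearest midpoint to Itgax, at 24.8 kb, was that of the Itgad peak. Col4a3 had the same property, with the TSS of most of its transcripts 128377 bp away. With only the TSS shared by most transcripts, 29 of the 165 genes were bound, or 17.6%, without these 2 genes, against 13.5% of all protein-coding genes.

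Among the ADAM genes, 7 of 32 were bound, 21.9%, and they included all 3 of Adam11, Adam22 and Adam23. These encode cell-surface proteins of neurons without protease activity, of which Adam22 and Adam23 bind the secreted LGI proteins. Adam23 (ENSMUSG00000025964) had a score of 350 in a peak on chromosome 1 from 63491526 to 63493378, centred 13 bp upstream of the TSS. Adam22 scored 140 and Adam11 107, the lowest score of the 31 genes. At Adam11 the midpoint lay in an intron, 190 bp downstream of the nearest TSS and 937 bp from the TSS shared by most transcripts. The CpG ratios of Adam11, Adam22 and Adam23 were 0.646, 0.683 and 0.814. Of all protein-coding genes, 17.8% were bound at ratios from 0.6 to 0.8 and 31.2% at 0.8 and above. Of 9 genes for ADAM proteases that shed proteins from the cell surface, 2 were bound, Adam9 with a score of 156 and Adam15 with 205, while Adam10 and Adam17, which release Notch and TNF, had their nearest midpoints at 148 kb and 338 kb. The role groups within the ADAM, ADAMTS, MMP, laminin and integrin genes were drawn up after the bound genes had been seen, and their counts are a description only. All of them stand beside the 14.2% of all protein-coding genes.

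Adam32 (ENSMUSG00000037437), an ADAM gene known for expression in testis, had the highest score of all 31 genes, 455 with rank 453. Its peak ran on chromosome 8 from 26058865 to 26059940, and its midpoint, 126 bp upstream of the TSS at 26059276, lay in the short gap between Adam32 and the 3′ end of Adam9, which is transcribed from the same strand. The peak at the TSS of Adam9, from 26126752 to 26128218, was 66.8 kb away, and a TSS of Tm2d2 was also within 1000 bp of its midpoint. Adam1b, which encodes a sperm protein, was bound by a peak with a score of 144 that did not reach its TSS: the midpoint was 961 bp downstream in the coding exon. Its neighbour Adam1a had its nearest midpoint at 19.7 kb, which was that of the same peak. Of the 21 ADAM genes with a CpG ratio below 0.4, among them Adam2, Adam3 and Adam18 of sperm, Adam1b was the only bound one, where 3.68% of all protein-coding genes with such ratios were bound.

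ADAMTS genes were bound at 5 of 19, 26.3%, with the highest median score of the subfamilies with 3 or more bound genes, 328. Adamts8 (ENSMUSG00000031994) and Adamts15 (ENSMUSG00000033453) are neighbours on chromosome 9 transcribed away from each other, with peaks 19.2 kb apart. Adamts8 had a score of 372 in a peak from 30749963 to 30751178 with its midpoint 423 bp downstream, and Adamts15 a score of 328 in a peak from 30728753 to 30730743 with its midpoint 289 bp downstream, both in coding exons. Adamts14 (ENSMUSG00000059901), 1 of 3 genes for enzymes that trim procollagen, scored 363 in a peak on chromosome 10 from 60735492 to 60736659 and was centred 85 bp upstream of the nearest TSS. Adamts18 scored 288 and Adamts7, which cuts a cartilage protein, 141. Of 7 ADAMTS genes whose enzymes cut proteoglycans, Adamts8 and Adamts15 were the 2 bound ones.

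MMP genes were bound at 3 of 23, 13.0%. Mmp17 (ENSMUSG00000029436) and Mmp15 (ENSMUSG00000031790) are 2 of the 6 genes for membrane-type MMPs, which act at the cell surface, and Mmp28 encodes a secreted enzyme. Mmp17 had a score of 338 in a peak on chromosome 5 from 130089341 to 130091491, centred 327 bp downstream in an intron. A TSS of the miRNA gene AC114657.1 lay 386 bp from that midpoint. Mmp15 had a score of 171 but, with 3134 bp from 97874620 to 97877753 on chromosome 8, the widest peak of the 30. Mmp28 scored 155. None of the 10 MMP genes on chromosome 9, among them the collagenase genes Mmp1a, Mmp8 and Mmp13 and the stromelysin genes Mmp3 and Mmp10, was bound. All 10 had CpG ratios below 0.4, where binding was rare over all genes. The gelatinase genes Mmp2 and Mmp9 had their nearest midpoints at 28.3 kb and 108 kb. Of the fibrillins and fibulins, Fbln1 (ENSMUSG00000006369), a basement membrane and elastic fibre protein, was the bound one of 6, with a score of 187 and the midpoint 109 bp downstream of the TSS on chromosome 15. The nearest midpoint to any TIMP gene was at 476 kb, from Timp3.

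The 30 peaks were of middle strength in the library. Their median score was 229, with quartiles at 147 and 322, against a median of 228 over all 3336 peaks and of 221 over the 2920 peaks at protein-coding genes. None was among the 334 peaks of highest score. With peaks below a score of 200 left out, 19 of the 165 genes were bound, or 11.5%, against 8.06% of all protein-coding genes. The 12 genes below it were Itgb1, Itgad, Lamc3, Fbln1, Col23a1, Adamts7, Mmp15, Mmp28, Adam1b, Adam9, Adam11 and Adam22. The plot of scores by subfamily shows that 6 of the 7 collagen genes and 4 of the 5 ADAMTS genes were above 200, but 3 of the 7 ADAM genes.

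**Figure D2:**
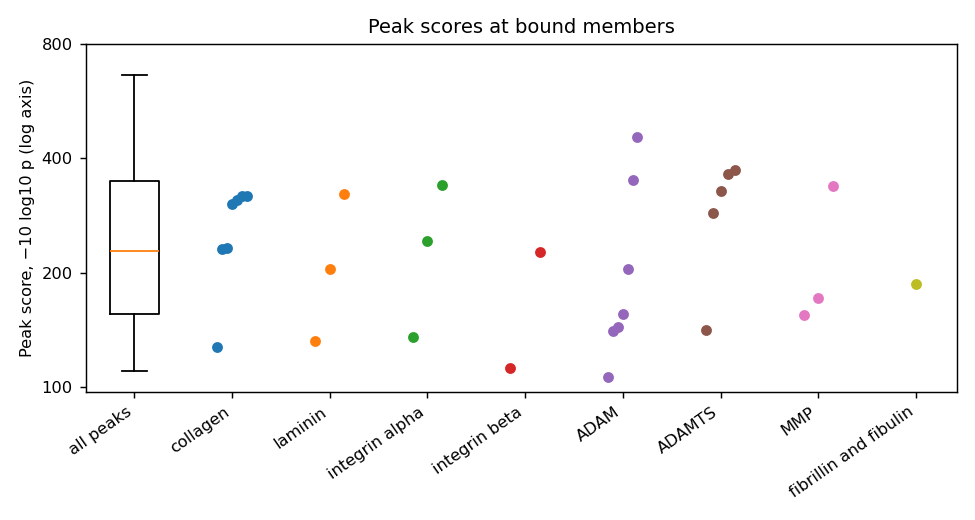
Peak score from MACS on a log axis of each bound gene (points) by subfamily, beside all 3336 peaks (box from quartile to quartile with the median, whiskers at the 5th and 95th percentile). The points lie between 107 at Adam11 and 455 at Adam32, around the median of 228 of all peaks.

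Since a gene counted as bound by the distance of a midpoint to a start site, and the list itself holds peaks at TSSs, the positions of the midpoints are a description within that window. At 22 of the 31 genes the midpoint was downstream and at 9 upstream of the closest start, with a median of 38 bp downstream and quartiles at -13 and 205 bp. Over all 3183 pairs of a bound protein-coding gene and a peak, the median was 120 bp downstream and the quartiles were -29 and 289 bp. Downstream midpoints made up 71.0% here and 69.1% over all pairs. The TSS lay inside the peak at 30 of the 31 genes, the exception being Adam1b. By the annotation of the gene itself, 12 midpoints fell in UTRs, 6 in coding exons, 6 in introns, 1 in a non-coding exon and 6 upstream of the gene. The median width was 1476.5 bp, against 1433 bp for all peaks.

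**Figure D3:**
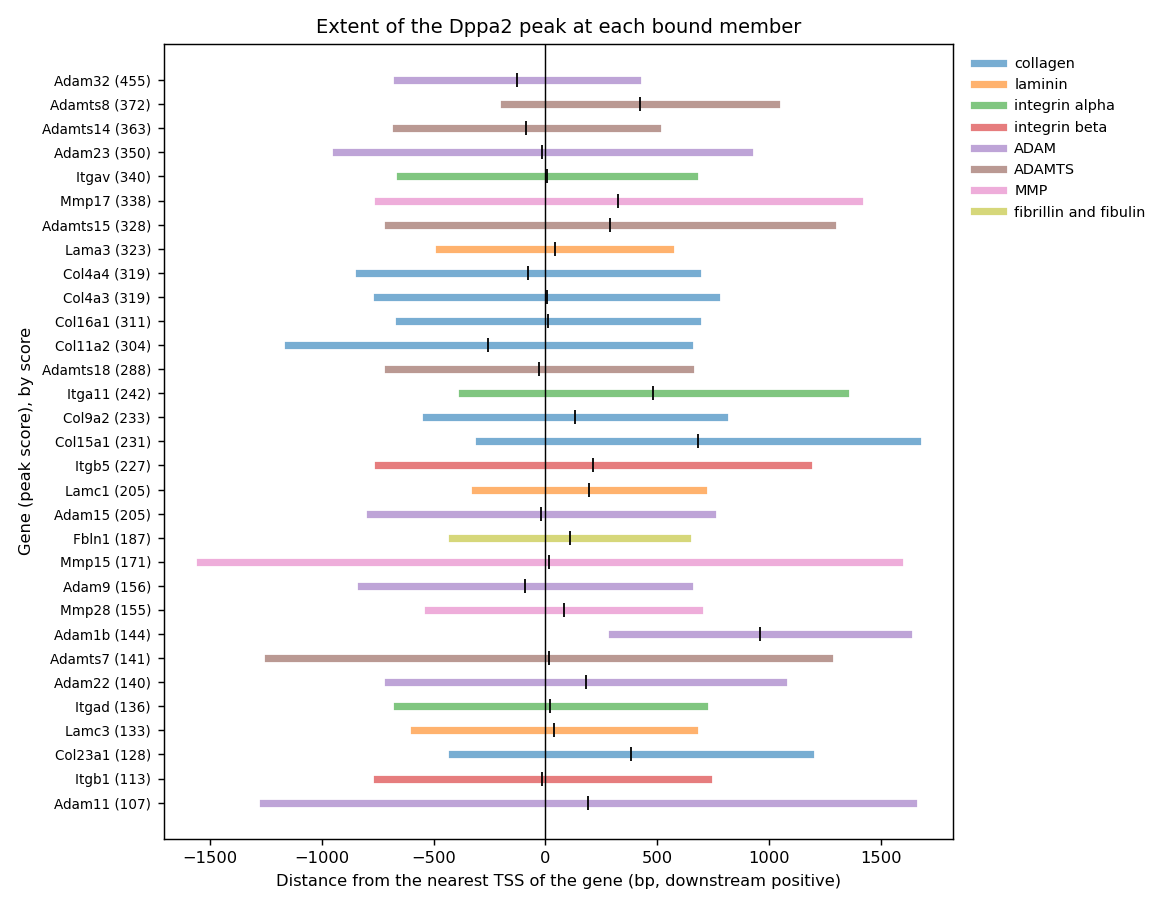
Extent of the peak at each of the 31 bound genes, ordered by score in brackets, as the distance in bp from the nearest TSS of the gene with downstream positive. Coloured bars are the peak intervals by subfamily and black ticks the midpoints; each bar but that of Adam1b crosses 0, and the bar of Mmp15 is the widest with 3134 bp.

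Just inside the window of 1000 bp lay Adam1b at 961 bp, Col15a1 at 683 bp and Itga11 at 483 bp. Just outside was Adamts2, a procollagen protease gene, at 1126 bp. A broad peak of 3637 bp on chromosome 11 from 50414894 to 50418530, with a score of 354, covered a TSS of Adamts2, but its midpoint was nearer to the lincRNA gene Gm12198. The next 2 genes outside, Adamts9 at 9817 bp and Itga10 at 10346 bp, had peaks nearest to other genes. Of the 134 genes that were not bound, 117 had no peak midpoint of this list of TSS peaks within 50 kb of a TSS. The median distance was 222160 bp, against 191129 bp for all unbound protein-coding genes. Peaks away from TSSs could lie nearer and were not analysed.

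Bound genes had promoters richer in CpG than unbound ones, as was also the case over all genes. The CpG observed-to-expected ratio in the 1000 bp around the TSS shared by most transcripts had a median of 0.683 at the 31 bound genes, with quartiles at 0.487 and 0.784, and of 0.349 at the 134 unbound ones, with quartiles at 0.206 and 0.630. Over all protein-coding genes the medians were 0.776 and 0.467. The median GC content was 63.0% at bound and 53.4% at unbound genes, and 63.2% and 53.3% over all. The groups overlapped. The bound genes of lowest ratio were Itgad with 0.147, Adam1b with 0.244, Col4a3 with 0.278, Col11a2 with 0.383 and Col16a1 with 0.456. At the most upstream TSS, which is the one in the peak, the ratio was 0.566 at Itgad and 0.452 at Col4a3. The unbound genes of highest ratio were Adam10 with 0.908, Itga9 with 0.876, Mmp24 with 0.871, Adamts2 with 0.858 and Itga3 with 0.839. Among the bound genes the score did not follow the CpG ratio (Pearson's r = -0.0592 and Spearman's rho = -0.0399 over 31 genes of 1 library). Col4a3 and Col4a4 share a peak, and the ratios used for Itgad and Col4a3 were not those at the TSS in the peak.

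**Figure D4:**
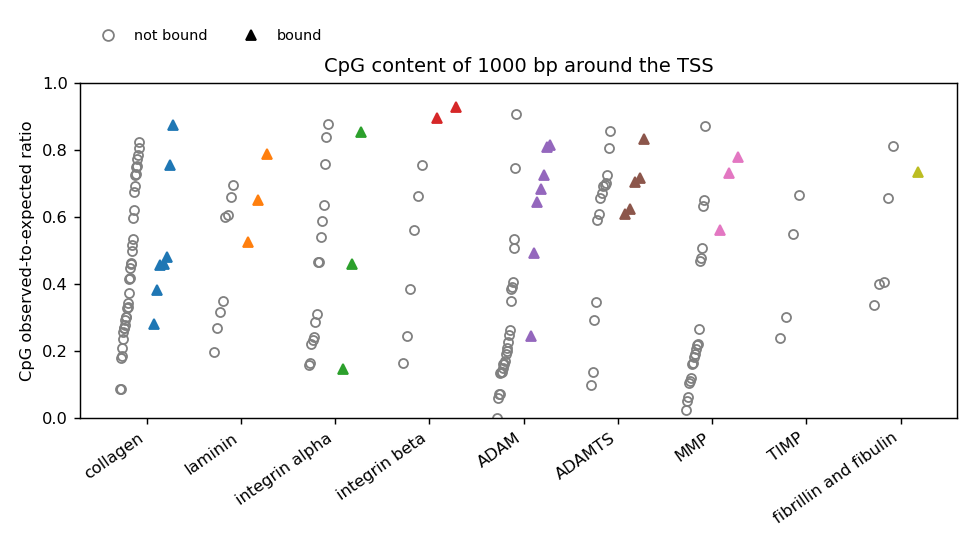
CpG observed-to-expected ratio in the 1000 bp around the TSS for each of the 165 genes by subfamily, with bound genes as filled triangles and unbound genes as open circles. Bound ADAM and MMP genes sit in the upper part of their subfamilies except Adam1b at 0.244, whereas 5 of the 7 bound collagen genes have ratios below 0.6.

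The subfamilies differed in CpG content. A ratio of at least 0.6 was found at 14 of 19 ADAMTS genes but at 7 of 32 ADAM and 5 of 23 MMP genes. Of these CpG-rich genes 5 of 14 ADAMTS, 5 of 7 ADAM, 2 of 5 MMP and 2 of 13 collagen genes were bound. The counts were 1 of 5 for integrin alpha, 2 of 4 for integrin beta, 2 of 5 for laminin, 1 of 3 for fibrillin and fibulin and 0 of 1 for TIMP genes. Below 0.6 the bound genes were 5 of 31 collagens, of which Col4a3 and Col4a4 share a peak, 2 of 25 ADAM genes and 2 of 13 integrin alpha subunits. There were also 1 of 18 MMP genes and 1 of 6 laminins. None of 5 ADAMTS, 4 integrin beta, 3 TIMP and 3 fibrillin or fibulin genes was bound below 0.6. Among the 165 genes, 20 of 57 were bound at a ratio of at least 0.6 and 11 of 108 below it. Over all protein-coding genes, 23.9% were bound at a ratio of at least 0.6 and 6.11% below it. All 14 MMP genes with a ratio below 0.4 were unbound, beside the 3.68% bound of all genes in that class, so that a count of 0 does not set these genes apart.

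By classes of the CpG ratio, 4 of 76 genes or 5.26% were bound below 0.4, where the share was 3.68% over all protein-coding genes. Between 0.4 and 0.6 it was 7 of 32 or 21.9%, against 13.1%. Between 0.6 and 0.8 it was 13 of 41 or 31.7%, against 17.8%, and at 0.8 and above 7 of 16 or 43.8%, against 31.2%. The share was above that of all genes in each class, but only the interval of the class from 0.6 to 0.8, from 18.1 to 48.1%, left out the share of all genes, and these classes were not tested. The 4 bound genes below 0.4 include Itgad and Col4a3, classed by a TSS outside the peak. At the TSS in the peak their ratios were 0.566 and 0.452, so the share in the lowest class depends on the TSS chosen. The lowest class held 76 of the 165 genes and 9058 of the 22367 protein-coding genes.

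**Figure D5:**
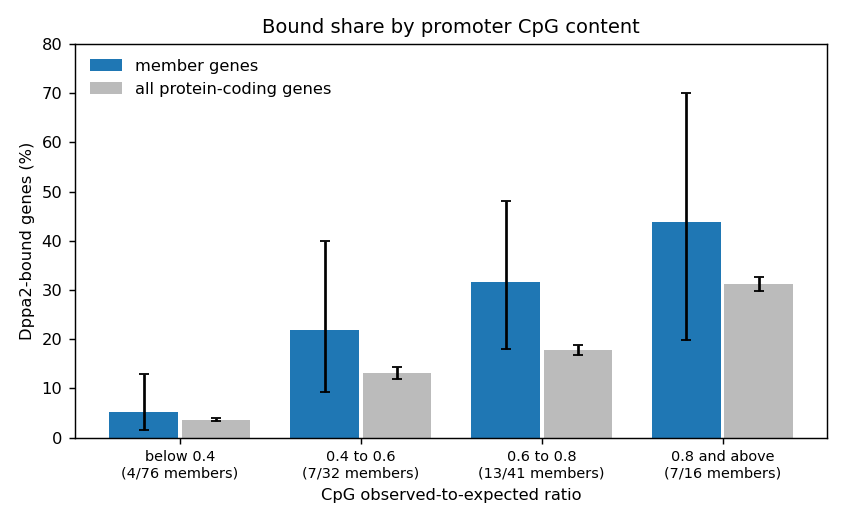
Share of Dppa2-bound genes (percent) in 4 classes of the CpG ratio for the 165 genes (blue) and all protein-coding genes (grey), with 95% exact intervals. The blue bars rise from 5.26% to 43.8% and the grey bars from 3.68% to 31.2%. The lowest blue bar includes Itgad and Col4a3, classed by a TSS outside the peak.

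The number of annotated start sites also moved with binding. Of 48 genes with 1 annotated TSS 3 were bound, Mmp17, Adamts15 and Adam1b, and of 117 genes with 2 or more TSSs 28 were bound, or 23.9%. Over all protein-coding genes the shares were 11.7% and 16.1%. More start sites widen the region in which a peak counts, and their part in the result was not tested beyond the count with 1 TSS per gene above. Genes with 1 TSS also had lower median CpG ratios than those with more, 0.245 against 0.469 here. The medians were 0.341 and 0.647 over all protein-coding genes, and the part of CpG content in this difference was not tested. By chromosome, 5 of 18 genes were bound on chromosome 8, Adam32, Adam9, Mmp15, Adamts18 and Itgb1, or 27.8%, beside 23.7% of all genes there. The 3 genes on chromosome X, Timp1, Col4a5 and Col4a6, were unbound, where 1.82% of all genes were bound.

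Other genes of the matrix and of adhesion, listed by their known roles, were bound at 31 of 123, 25.2% (exact interval 17.8 to 33.8%), beside the 14.2% of all genes. Without peaks below a score of 200 this fell to 16 of 123, 13.0%, beside the 8.06% of all genes. The list was drawn up with earlier results of these data known, so its shares and intervals are a description only. By role the 31 bound genes were 8 of 40 glycoproteins, 4 of 25 proteoglycans, 10 of 21 genes for collagen processing or crosslinking, 4 of 12 genes for ADAMTS-like proteins or inhibitors and regulators of proteases, and 5 of 25 genes of adhesion complexes. The 10 genes of collagen processing were P4ha3, Loxl1, Pcolce2, Leprel1, Crtap, Tll2, Lox, Plod3, Lepre1 and Plod2, a share of 47.6% (exact interval 25.7 to 70.2%). Of these, Lox, Plod3, Lepre1 and Plod2 had scores below 200 and the others above. The 21 genes of this role had a median CpG ratio of 0.743, above the 0.544 of all protein-coding genes and the 0.456 of the 165 genes. The part of CpG content in the share of 47.6% was not tested. The highest scores in this list were 537 at P4ha3, a collagen prolyl hydroxylase, 449 at Adamtsl2, a secreted ADAMTS-like protein, 432 at Loxl1, which crosslinks elastin, 425 at Pcolce2, which enhances procollagen cleavage, and 382 at Leprel1, another prolyl hydroxylase. The basement membrane gene Nid1 had a score of 154 and Dag1, a laminin receptor, 192. Ptk2, the focal adhesion kinase, had a score of 161, and Fermt2, an integrin activator, 129.

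For comparison, cadherins and protocadherins, which join cells to each other, were bound at 7 of 59 genes or 11.9%. Semaphorins, plexins, ephrins and Eph receptors, which guide axons, were bound at 14 of 52 or 26.9%. The differences from the 18.8% of the matrix, integrin and ADAM genes were not tested.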

How the data were processed

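ChIP-seq for V5-Dppa2 was analysed from the peak list of 1 library, V5-Dppa2 in CGR8 cells; the control and histone modification libraries were not analysed here. Each deposited interval carries the score that the authors obtained from MACS. They filtered reads of low complexity, mapped them to mm9 with Bowtie 0.12.7, dropped duplicates (the submitters' processing notes also name Picard 1.81) and called peaks with MACS 1.4.2 against the control ChIP.

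Start coordinates were converted from the BED count to a count from 1. Midpoints were compared with the TSSs of GENCODE M1 on the mm9 genome, and GC and CpG content was computed over 1000 bp around 1 TSS per gene. Counts and medians were set beside those of all protein-coding genes. No test was run, as there is 1 library. The distance and composition steps were tested on simulated data. The alternatives were a stricter score, other windows, the peak interval in place of the midpoint, other TSSs and merged peaks.

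Some items are not reported here. All bound genes among the 165 are named with their scores, but only some of the other bound matrix genes are. Among the 165, the place of the midpoint relative to the TSS is given for those of highest score overall and in each subfamily, for those nearest the window's limit and for Adam11. The CpG ratio is given for the genes at its extremes and for a few others. The genes and lists were chosen with earlier results of these data known. Python 3.11.15 was used with numpy 2.4.6, pandas 2.3.3, scipy 1.17.1 and matplotlib 3.10.9.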

Additional observations from a re-analysis of the deposited data

How the results depend on the processing

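No paired analysis was possible because a single library entered and groups were not tested, and no replicate can be left out. The unknown depth limits what can be said of weaker peaks. Using 1 TSS per gene and assigning peaks to the nearest gene only were chosen after seeing the data.

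Leaving out peaks below a score of 200 lowered the bound genes from 31 to 19, that of all protein-coding genes to 1802 and that of the other matrix genes to 16, as fewer peaks enter. It left 1 integrin beta, 3 ADAM, 1 MMP and 0 fibrillin or fibulin genes, and raised the median score from 229 to 315. The median GC content of bound and unbound genes was 68.0% and 56.4% over 500 bp and 57.3% and 51.0% over 2000 bp; the cause was not tested. Under the other windows, distances, TSSs and merging, the number of the 165 genes bound ran from 29 to 32. Since the list holds peaks at TSSs, the window of 5000 bp cannot show whether binding farther from promoters would change the count. Adam1b and Col15a1 were lost at 500 bp, Col4a3 and Itgad with 1 TSS per gene, and Col15a1 and Col4a4 with the nearest gene only. Adamts2 was gained at 5000 bp and when any base of a peak counted. With the TSS required inside the peak Adamts2 was gained and Adam1b lost.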
